A study of Mus musculus with 12 samples.

Results

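Transcript levels of 36 genes for aminoacyl-tRNA synthetases were followed in hearts of mouse embryos at embryonic day 9.5. The genes were chosen by symbol, 20 for the cytosolic enzymes and 16, with names ending in 2, for the mitochondrial ones. All 36 were listed in each of the 4 deposited tables, which together hold 15663 genes. RNA sequencing covered 12 libraries of embryos labelled as strain C57/BL 6, in 4 genotype groups of 3. The Asb2 cKO group (conditional knockout, NkxCre.Asb2fl/fl) had both Asb2 alleles floxed. The double mutant group (NkxCre.Asb2fl/fl.Flnafl/fl) had floxed Flna in addition. The group called Flna-labelled here (NkxCre.Asb2fl/+.Flnafl/fl) had floxed Flna and 1 floxed Asb2 allele, and the control group (NkxCre.Asb2fl/+) had 1 floxed Asb2 allele. Every group, the control included, carried the Cre driver labelled NkxCre, which recombines in the cells that express it and in their descendants, so that other cells of a dissected heart keep the floxed genes. Whether a group's libraries came from separate embryos or from pools is not in the labels, and p-values then measure only the spread among libraries, some of which may be technical. In bulk tissue, fewer cells of a type and less RNA per cell cannot be told apart.

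Aminoacyl-tRNA synthetases attach each amino acid to its own tRNA, the step that decides which amino acid a codon receives. In mammals the cytosolic enzymes serve the bulk of protein synthesis, and a separate set, encoded in the nucleus and imported, serves the mitochondrial ribosomes that make subunits of the respiratory chain. The mouse genes Gars and Kars encode the glycine and lysine enzymes of both compartments and are counted here as cytosolic. Many genes of cytosolic synthetases are known from cultured mammalian cells as targets of ATF4, a transcription factor made in larger amounts when amino acids are short or mitochondria are impaired. ASB2 gives a cullin ubiquitin ligase its substrates, among them filamin A, the actin crosslinker encoded by Flna.

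The libraries held 25954539 to 42473118 reads in listed genes, and 1 read equalled 0.0239 to 0.038 CPM (reads scaled to library size in the authors' tables). Asb2 stood at 77.8, 163 and 115 CPM in Asb2 cKO hearts, 122, 121 and 153 CPM in double mutant hearts, 125, 113 and 197 CPM in Flna-labelled hearts and 289, 183 and 218 CPM in control hearts. Against the control it fell in the Asb2 cKO (log2FC -0.99, SE 0.26, adjusted p = 0.0248). Double mutant hearts also had less (log2FC -0.78, SE 0.17, adjusted p = 0.00724). Flna was not lower in the groups labelled as Flna-floxed, at 1012, 1012 and 1146 CPM in double mutant hearts and 958, 1011 and 989.5 CPM in Flna-labelled hearts, beside 1032, 869 and 725 CPM in Asb2 cKO hearts and 490.3, 554 and 721 CPM in control hearts, so directions for these groups rest on the label. It rose in the double mutant (log2FC 0.86, SE 0.15, adjusted p = 0.00255) and in the Asb2 cKO, whose label has no floxed Flna (log2FC 0.58, SE 0.18, adjusted p = 0.0464), both against the control. Markers of cardiomyocytes, a list of 11 genes, summed to 23296 to 39289 CPM in Asb2 cKO hearts, 27020 to 42405 CPM in double mutant hearts, 17266 to 32118 CPM in Flna-labelled hearts and 27391 to 42351 CPM in control hearts, with no gene of the list at 0. Markers of red blood cells, a list of 10 genes, summed to 512 to 1203 CPM in Asb2 cKO hearts, 355 to 605 CPM in double mutant hearts, 3064 to 3933 CPM in Flna-labelled hearts and 7472 to 8069 CPM in control hearts. Markers of pharyngeal epithelium, 7 genes, summed to 414 to 596 CPM in Asb2 cKO hearts, 326 to 542 CPM in double mutant hearts, 233 to 436 CPM in Flna-labelled hearts and 219 to 296 CPM in control hearts. Markers of endothelium, also 7, summed to 749 to 1120 CPM in Asb2 cKO hearts, 963 to 1281 CPM in double mutant hearts, 576 to 751 CPM in Flna-labelled hearts and 642 to 803 CPM in control hearts. Markers of embryonic liver, 5 genes, summed to 1.94 to 95.5 CPM in Asb2 cKO hearts, 0.143 to 1.19 CPM in double mutant hearts, 114 to 436 CPM in Flna-labelled hearts and 5.38 to 264 CPM in control hearts. No gene of the red blood cell, pharyngeal and endothelial lists was at 0 in all libraries of a group, and 2 liver genes were at 0 in all double mutant libraries. In the Asb2 cKO against the control 0 red blood cell markers rose and 10 of 10 fell, 4 of 7 pharyngeal markers rose and 0 fell, 1 of 7 endothelial markers rose and 2 fell, and 0 of 4 tested liver markers were called. In the double mutant against the control 10 of 10 red blood cell markers fell, 2 of 6 tested pharyngeal and 4 of 7 endothelial markers rose, and 0 of 3 tested liver markers were called. Of 11 cardiomyocyte markers, 0 rose and 1 fell in the Asb2 cKO, and 1 rose and 1 fell in the double mutant. Markers of epicardium, 4 genes, summed to 43.8, 245 and 309 CPM in the control libraries. None of these 4, and none of 4 tested neural crest markers, was called in either comparison. Over all genes tested, 10.7% rose and 10.9% fell in the Asb2 cKO, and 15.6% rose and 16.7% fell in the double mutant. The part of these cell types in the results was not tested.

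Several cytosolic synthetases rose and several mitochondrial ones fell in the hearts with both Asb2 alleles floxed. Serine, cysteine, isoleucine and leucine enzymes of the cytosol rose in the Asb2 cKO, led by Sars at 1.72-fold its control level. The cytosolic histidine, tryptophan and arginine enzymes and the beta subunit of the phenylalanine enzyme fell. Among the mitochondrial enzymes those for serine, tyrosine, cysteine and methionine fell and none rose. Log2 fold changes (log2FC) here and below are differences of log2(CPM + 0.5), which understate changes of low genes. They carry their standard error (SE) and limma's p with Benjamini-Hochberg adjustment over all genes, and a gene is called at an adjusted p under 0.05.

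In the Asb2 cKO against the control, 4 of 20 cytosolic genes rose and 4 fell, while 0 of 16 mitochondrial genes rose and 4 fell. Of the 14034 genes tested in that comparison, 10.7% rose and 10.9% fell, 21.6% together. The median log2 fold change was 0.14 over the cytosolic genes and -0.23 over the mitochondrial genes, beside -0.005 over all genes tested. The mitochondrial median was -0.37 without Asb2 cKO library 1 and -0.36 without control library 2. Calls over all genes numbered 3033, and 2004 without Asb2 cKO library 2, 1771 without control library 1 and 1581 without control library 2. The counts of this comparison moved with single libraries. The cytosolic genes that rose numbered 2 without control library 2. Those that fell numbered 0 when control library 1 was left out, 1 when control library 2 was, and 2 when control library 3 or Asb2 cKO library 3 was. The mitochondrial genes that fell numbered 2 without control library 1. Of the 12 calls, those of Sars, Cars, Sars2 and Yars2 held under each of 17 alternative settings and left-out libraries. Lost calls are given below mainly for left-out libraries, and other settings, described further on, also removed calls. Here limma without trend and robust lost those of Hars, Farsb, Lars, Rars and Wars. A replicate block lost those of Farsb, Lars, Rars, Wars, Cars2 and Mars2.

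The double mutant against the control gave 9 cytosolic genes that rose and 5 that fell, and 1 mitochondrial gene that rose and 5 that fell. In that comparison 15.6% of 14015 genes rose and 16.7% fell, 32.3% together. The median log2 fold change was 0.30 over the cytosolic genes, -0.29 over the mitochondrial genes and 0.005 over all genes tested. Without double mutant library 1 the cytosolic median was 0.17. Without double mutant library 2, 2875 genes in all were called, beside 4523. The cytosolic genes that fell numbered 3 without control library 1, without double mutant library 2 or without double mutant library 3. A fit over all 12 libraries, which averages the difference between Asb2 fl/fl and Asb2 fl/+ over both Flna labels, called 9 cytosolic genes higher and 5 lower, and 1 mitochondrial gene higher and 9 lower. There 21.8% of 13981 genes rose and 24.3% fell, 46.1% together, so the shares of cytosolic genes that rose and of mitochondrial genes that fell were above these and the share of cytosolic genes that fell was near them.

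**Figure D1:**
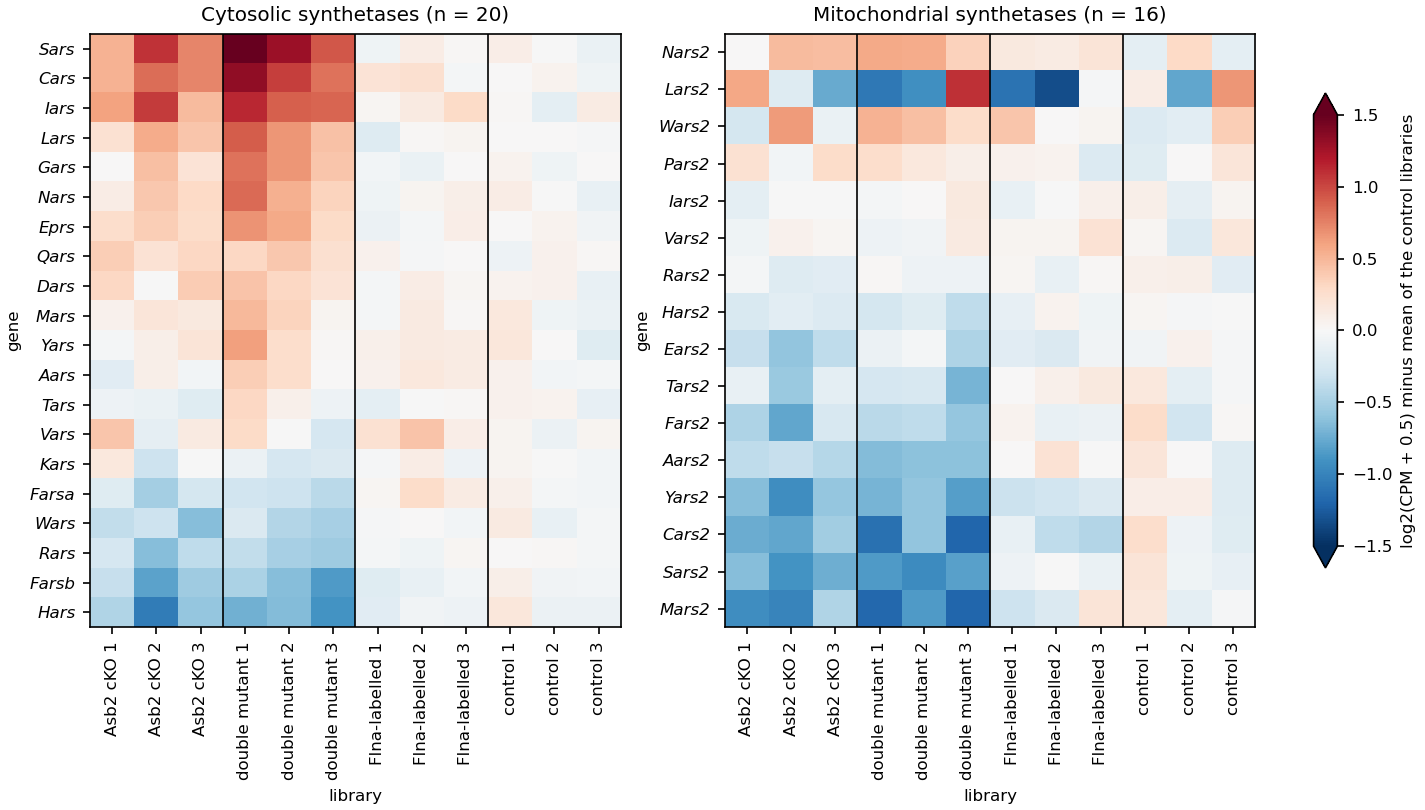
Difference of each synthetase gene (rows) from the mean of the control libraries in every library (columns), on the log2(CPM + 0.5) scale, with cytosolic genes on the left and mitochondrial genes on the right. Rows run from the largest average increase with both Asb2 alleles floxed to the largest decrease. Sars, Cars and Iars are above the control in all Asb2 cKO and double mutant libraries, and Mars2, Sars2 and Cars2 are below it in all of them. The cytosolic Hars, Farsb, Farsa, Rars and Wars are below it in all of them as well.

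Per kilobase of the deposited gene length, most cytosolic genes stood above most mitochondrial ones, with overlap between the compartments. Over the 12 libraries the median cytosolic gene stood at 49.98 CPM per kb and the median mitochondrial gene at 9.38 CPM per kb. In the control the order of the cytosolic genes ran from Gars at 125 CPM per kb and Nars at 92.6 CPM per kb to Farsa at 17.8 CPM per kb and Cars at 10.5 CPM per kb. Many neighbours in this order lay within each other's spread, for example Farsb at 43.1 and Vars at 42.7 CPM per kb. Leaving out Lars2, which is described further on, the mitochondrial genes ran from Sars2 at 13.6 CPM per kb to Wars2 at 1.97 CPM per kb, and from Sars2 down to Iars2, at 11.3 CPM per kb, neighbours lay within each other's spread. Cars thus lay below Sars2, Iars2 and those between them, and Lars2 above every cytosolic gene. Summed over the 20 cytosolic genes the level was 3814 to 4019 CPM in Asb2 cKO hearts, 3868 to 5037 CPM in double mutant hearts, 3454 to 3686 CPM in Flna-labelled hearts and 3403 to 3656 CPM in control hearts. Summed over the 15 mitochondrial genes other than Lars2 it was 410.9 to 439.9 CPM in Asb2 cKO hearts, 412 to 440.1 CPM in double mutant hearts, 483 to 506 CPM in Flna-labelled hearts and 486 to 539 CPM in control hearts. Both sums of the Asb2 fl/fl groups lay outside the ranges of the Asb2 fl/+ groups, the cytosolic one above and the mitochondrial one below.

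Sars (ENSMUSG00000068739, chromosome 3, 108424865 to 108445209, minus strand, GRCm38/mm10) encodes the cytosolic serine enzyme and rose the most. It stood at 236, 348 and 271 CPM in Asb2 cKO hearts, 461, 399 and 312 CPM in double mutant hearts, 156, 176 and 166 CPM in Flna-labelled hearts and 176, 162 and 153 CPM in control hearts. All 6 Asb2 fl/fl libraries lay above all 6 others. It rose in the Asb2 cKO (log2FC 0.78, SE 0.16, adjusted p = 0.00757) and likewise in the double mutant (log2FC 1.24, SE 0.14, adjusted p = 0.000319), where it stood at 2.36-fold the control level. Cars (ENSMUSG00000010755, chromosome 7, 143557230 to 143600090, minus strand), for cysteine, had 74.2, 92.4 and 85.7 CPM in Asb2 cKO hearts, 129.7, 106 and 90.6 CPM in double mutant hearts, 59.3, 61.0 and 50.3 CPM in Flna-labelled hearts and 51.4, 53.5 and 49.3 CPM in control hearts. Its groups were separated in the same way, and it rose in the Asb2 cKO (log2FC 0.70, SE 0.13, adjusted p = 0.00568) and likewise in the double mutant (log2FC 1.06, SE 0.13, adjusted p = 0.000509).

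Iars (ENSMUSG00000037851, chromosome 13, 49682100 to 49734267, plus strand), the isoleucine enzyme of the multi-synthetase complex, had 234, 319.9 and 213 CPM in Asb2 cKO hearts, 337, 286 and 283 CPM in double mutant hearts, 157, 169 and 188 CPM in Flna-labelled hearts and 156, 139 and 168 CPM in control hearts. Its Asb2 fl/fl libraries also lay above all the others, and it rose in the Asb2 cKO (log2FC 0.71, SE 0.16, adjusted p = 0.0135) and the double mutant (log2FC 0.97, SE 0.12, adjusted p = 0.000382). Without control library 2 the call against the control was lost (adjusted p = 0.0554). Lars (ENSMUSG00000024493, chromosome 18, 42202298 to 42262194, minus strand), the leucine enzyme of the same complex, which is also known as a leucine sensor of the mTORC1 pathway, had 200.3, 251 and 229 CPM in Asb2 cKO hearts, 323, 271 and 233 CPM in double mutant hearts, 150.03, 173 and 176 CPM in Flna-labelled hearts and 172, 172 and 169 CPM in control hearts. Here too the Asb2 fl/fl libraries lay above all others. Its call in the Asb2 cKO (log2FC 0.40, SE 0.13, adjusted p = 0.0484) was the closest to the threshold and was lost without each control library in turn and without Asb2 cKO library 2 or 3, with adjusted p of up to 0.156 over the alternatives. Its rise in the double mutant (log2FC 0.67, SE 0.13, adjusted p = 0.00351) held under each alternative.

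Further cytosolic genes passed the threshold in the double mutant and not in the Asb2 cKO. Gars had 298, 408 and 342 CPM in Asb2 cKO hearts, 522, 469 and 397 CPM in double mutant hearts, 288, 277 and 298 CPM in Flna-labelled hearts and 309, 285 and 299 CPM in control hearts. Its first Asb2 cKO library lay within the control range, whereas the double mutant libraries were above all control libraries. Against the control it rose in the double mutant (log2FC 0.63, SE 0.12, adjusted p = 0.00416) and did not pass in the Asb2 cKO (log2FC 0.22, SE 0.14, adjusted p = 0.289). Nars, for asparagine, rose in the double mutant as well (log2FC 0.57, SE 0.14, adjusted p = 0.0116). Eprs, which joins the glutamate and proline enzymes in a single protein, rose too (log2FC 0.51, SE 0.12, adjusted p = 0.0113). Qars, the glutamine enzyme, rose by less (log2FC 0.32, SE 0.10, adjusted p = 0.0341), and Dars, for aspartate, also rose (log2FC 0.32, SE 0.11, adjusted p = 0.045). The calls of Dars and Qars were lost without any control library and without double mutant library 1 or 2, and that of Eprs without double mutant library 2. Averaged over both Flna labels, all 9 genes passed, with log2 fold changes from 0.26 for Dars, a call lost without double mutant library 1 or Flna-labelled library 1, to 1.00 for Sars.

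**Figure D2:**
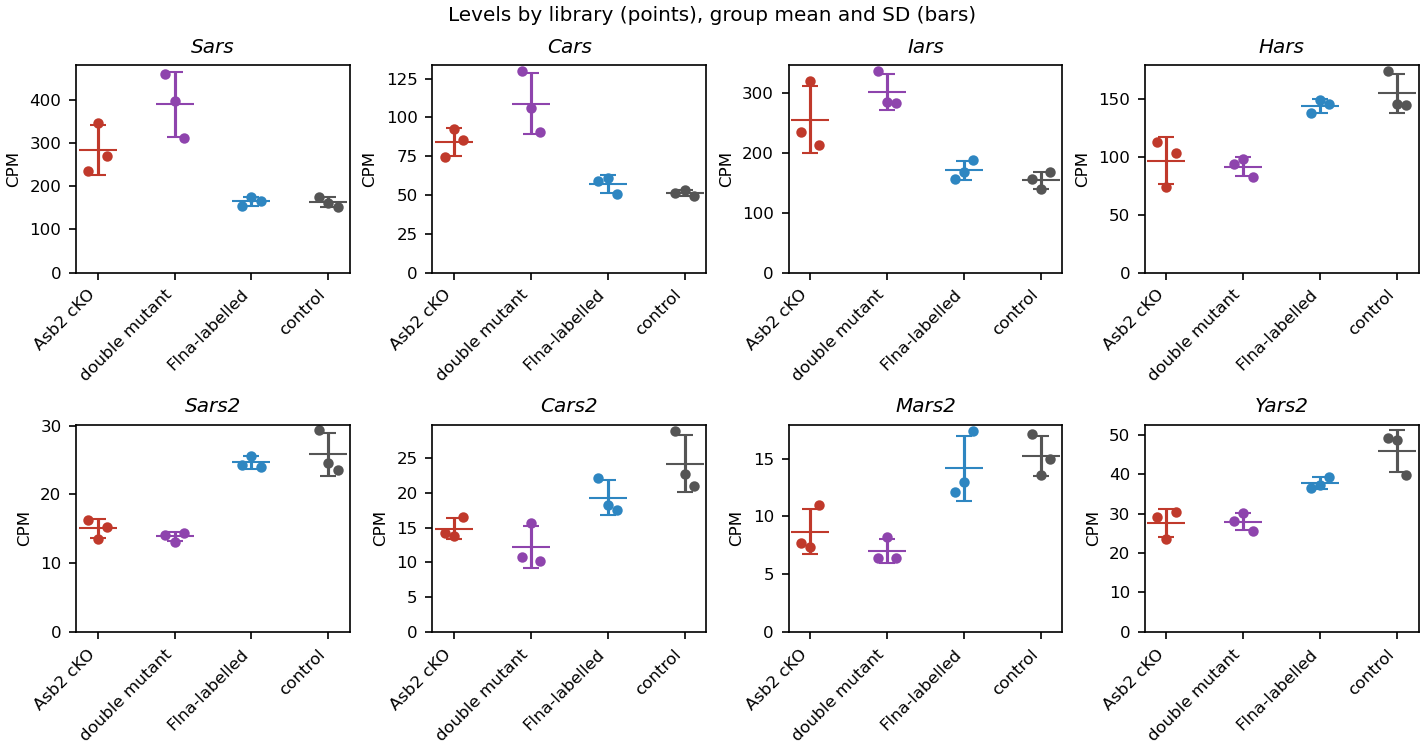
Levels in CPM of 4 cytosolic genes (upper row) and 4 mitochondrial genes (lower row) by genotype group, with a point for each of 3 libraries, the mean as a long bar and the SD as an error bar. Sars, Cars and Iars are higher in the Asb2 cKO and double mutant libraries than in all others, and Hars, Sars2, Cars2, Mars2 and Yars2 are lower.

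Hars (ENSMUSG00000001380, chromosome 18, 36766528 to 36783205, minus strand), the cytosolic histidine enzyme, went the other way. It had 113, 74.3 and 104 CPM in Asb2 cKO hearts, 93.9, 98.3 and 83.0 CPM in double mutant hearts, 138, 149 and 146 CPM in Flna-labelled hearts and 174, 146 and 145 CPM in control hearts. The Asb2 fl/fl libraries lay below all others. It fell in the Asb2 cKO (log2FC -0.69, SE 0.17, adjusted p = 0.0164), a call lost without control library 1 (adjusted p = 0.0593) and in limma without trend and robust. It fell likewise in the double mutant (log2FC -0.75, SE 0.12, adjusted p = 0.00139). Farsb (ENSMUSG00000026245, chromosome 1, 78417975 to 78488897, minus strand), for the beta subunit of the phenylalanine enzyme, had 81.0, 58.7 and 71.2 CPM in Asb2 cKO hearts, 74.1, 66.2 and 56.9 CPM in double mutant hearts, 90.7, 95.5 and 99.8 CPM in Flna-labelled hearts and 109, 99.6 and 100.1 CPM in control hearts. All Asb2 fl/fl libraries were below the others. Farsb fell in the Asb2 cKO (log2FC -0.56, SE 0.14, adjusted p = 0.0204). That call was lost without control library 1 or 2, with a replicate block and in limma without trend and robust. Farsb also fell in the double mutant (log2FC -0.65, SE 0.12, adjusted p = 0.00323). Its partner Farsa, for the alpha subunit, had 66.0 ± 7.67 CPM in Asb2 cKO hearts and 82.3 ± 3.77 CPM in control hearts (SD, n = 3 each). It did not pass in the Asb2 cKO (log2FC -0.32, SE 0.13, adjusted p = 0.104) and fell in the double mutant (log2FC -0.33, SE 0.10, adjusted p = 0.0284), a call lost without control library 1 or 2 and without double mutant library 2 or 3.

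Wars (ENSMUSG00000021266, chromosome 12, 108860030 to 108894174, minus strand), for tryptophan, had 90.4, 94.3 and 75.3 CPM in Asb2 cKO hearts, 101, 86.2 and 82.7 CPM in double mutant hearts, 116, 118 and 114 CPM in Flna-labelled hearts and 129, 109 and 115 CPM in control hearts. Rars (ENSMUSG00000018848, chromosome 11, 35808381 to 35834506, minus strand), the arginine enzyme of the multi-synthetase complex, had 153, 117.3 and 139.7 CPM in Asb2 cKO hearts, 141, 129.6 and 126 CPM in double mutant hearts, 179.6, 175 and 186 CPM in Flna-labelled hearts and 184, 185 and 179 CPM in control hearts. For both genes the Asb2 fl/fl libraries lay below all others. Wars fell in the Asb2 cKO (log2FC -0.44, SE 0.14, adjusted p = 0.0412), a call lost without each control library in turn and without Asb2 cKO library 1 or 3. It also fell in the double mutant (log2FC -0.39, SE 0.12, adjusted p = 0.0279), a call lost without control library 1 and without double mutant library 2 or 3. Rars fell in the Asb2 cKO (log2FC -0.43, SE 0.13, adjusted p = 0.0438), a call lost without each control library and without Asb2 cKO library 2 or 3. Its fall in the double mutant (log2FC -0.47, SE 0.10, adjusted p = 0.00568) held under each alternative.

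The remaining cytosolic genes, Aars, Kars, Mars, Tars, Vars and Yars, for alanine, lysine, methionine, threonine, valine and tyrosine, were called in no comparison. Their log2 fold changes in the Asb2 cKO ran from -0.12 for Tars to 0.14 for Vars. The double mutant against the control gave from -0.19 for Kars to 0.30 for Yars. The 95% interval for Yars there ran from -0.05 to 0.65, so a moderate increase lies within it.

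The direction of a cytosolic gene was set beside what is known of it, with lists drawn up when results of these data were known. Of 13 synthetases commonly described as ATF4 targets in cultured mammalian cells, 4 rose and 1, Wars, fell in the Asb2 cKO, with a median log2 fold change of 0.22. Against the control, 7 rose and 1 fell in the double mutant, with a median of 0.51. Of the other 7 cytosolic genes, 0 rose and 3 fell in the Asb2 cKO, with a median of -0.32, and 2 rose and 4 fell in the double mutant, with a median of -0.34. In the Asb2 cKO 30.8% of the 13 rose and 42.9% of the 7 fell, while 10.7% of all genes tested rose and 10.9% fell. In the double mutant these shares were 53.8% and 57.1%, beside 15.6% and 16.7% of all genes. Whether the lists differ from other genes was not tested. By library, the median difference of the 13 genes from the control mean was 0.11, 0.37 and 0.20 in the Asb2 cKO, 0.68, 0.54 and 0.28 in the double mutant, -0.03, 0.11 and 0.04 in the Flna-labelled group and 0.07, -0.01 and -0.05 in the control. For the other 7 it was -0.19, -0.51 and -0.27 in the Asb2 cKO, -0.28, -0.31 and -0.41 in the double mutant, -0.02, -0.01 and 0.008 in the Flna-labelled group and 0.05, -0.001 and -0.04 in the control. In every Asb2 fl/fl library the median of the 13 genes thus lay above the control mean and the median of the 7 below it, while single genes of both lists went either way.

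Membership in the multi-synthetase complex, an assembly of 8 of these enzymes with 3 scaffold proteins, is another known division of the cytosolic enzymes, and genes rose and fell on both sides of it. Of the 8 complex enzymes 2 rose and 1 fell in the Asb2 cKO, and 5 rose and 1 fell in the double mutant against the control. Of the 12 cytosolic genes outside it 2 rose and 3 fell in the Asb2 cKO, and 4 rose and 4 fell in the double mutant. Over all genes tested, 10.7% rose and 10.9% fell in the Asb2 cKO, and 15.6% rose and 16.7% fell in the double mutant. The 12.5% of complex enzymes that fell in either comparison were thus near these shares. The scaffold genes Aimp1, Aimp2 and Eef1e1 had log2 fold changes of -0.19, -0.41 and -0.48 in Asb2 cKO hearts, none of them called. Aimp2 fell in the double mutant (log2FC -0.45, SE 0.13, adjusted p = 0.0219).

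Promoter sequences are shown for the cytosolic genes with a match to an ATF4 element and for Sars, which rose the most. RefSeq windows of 250 bases before to 50 bases after the start were at hand for 27 of the 36 genes and not for Cars, Hars, Hars2, Lars, Nars, Pars2, Rars, Vars and Wars. The searched core of the element bound by ATF4 with C/EBP partners was TGATGNAA on either strand. It stood in 5 of 13 cytosolic genes with a window (Aars, Gars, Iars, Tars and Yars), in 0 of 14 mitochondrial genes and in 3.969% of all 32851 windows. The narrower TGATGCAA, all of whose matches are among these, stood in Aars, Iars, Tars and Yars and in 0.895% of all windows. The lines below give 120 bases before to 30 bases after the start on the gene's own strand (GRCm38.p6), with matches in capitals and a match to the other strand printed as it reads on this one.
Iars, chr13:49682010-49682159, plus strand: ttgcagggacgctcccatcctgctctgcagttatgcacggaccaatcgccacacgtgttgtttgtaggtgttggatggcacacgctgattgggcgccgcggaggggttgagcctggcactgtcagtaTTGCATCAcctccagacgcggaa
Gars, chr6:55037881-55038030, plus strand: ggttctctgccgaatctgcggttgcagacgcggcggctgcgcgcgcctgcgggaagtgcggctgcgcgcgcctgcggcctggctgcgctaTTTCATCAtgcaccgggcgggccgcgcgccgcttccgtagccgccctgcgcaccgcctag
Sars, chr3:108445230-108445379, minus strand: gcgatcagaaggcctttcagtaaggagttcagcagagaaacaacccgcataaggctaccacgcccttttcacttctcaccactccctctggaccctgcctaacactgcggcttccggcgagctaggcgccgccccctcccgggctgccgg
Aars, chr8:111033722-111033871, plus strand: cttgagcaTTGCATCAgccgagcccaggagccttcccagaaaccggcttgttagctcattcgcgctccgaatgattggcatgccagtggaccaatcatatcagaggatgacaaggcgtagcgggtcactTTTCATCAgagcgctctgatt
Tars, chr15:11399629-11399778, minus strand: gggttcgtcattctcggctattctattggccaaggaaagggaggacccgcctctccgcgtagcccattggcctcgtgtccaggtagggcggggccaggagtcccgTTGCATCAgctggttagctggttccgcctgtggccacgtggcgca
Yars, chr4:129189783-129189932, plus strand: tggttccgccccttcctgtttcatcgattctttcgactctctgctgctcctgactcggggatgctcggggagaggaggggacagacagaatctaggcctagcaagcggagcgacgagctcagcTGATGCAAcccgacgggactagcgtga
Of these genes, Iars rose in the Asb2 cKO and the double mutant and Gars in the double mutant. Aars has a pair of matches and was not called, with log2FC 0.22, SE 0.12, adjusted p = 0.186 in double mutant hearts against the control. Tars and Yars, with 1 match each, were not called either. Sars rose the most and had no match in its window of 300 bases. A match describes letters and not binding, and the absence of a match says only that these letters are not in this window.

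Among the mitochondrial enzymes, Sars2 (ENSMUSG00000070699, chromosome 7, 28741992 to 28753871, plus strand), for serine, had 16.3, 13.5 and 15.3 CPM in Asb2 cKO hearts, 14.1, 13.1 and 14.4 CPM in double mutant hearts, 24.3, 25.7 and 23.9 CPM in Flna-labelled hearts and 29.4, 24.6 and 23.6 CPM in control hearts. The Asb2 fl/fl libraries lay below all others. Sars2 fell in the Asb2 cKO (log2FC -0.76, SE 0.16, adjusted p = 0.0102) and likewise in the double mutant (log2FC -0.87, SE 0.14, adjusted p = 0.00174), under each alternative. Yars2 (ENSMUSG00000022792, chromosome 16, 16302965 to 16309640, plus strand), for tyrosine, had 29.1, 23.7 and 30.3 CPM in Asb2 cKO hearts, 28.1, 30.1 and 25.6 CPM in double mutant hearts, 36.5, 37.2 and 39.3 CPM in Flna-labelled hearts and 49.2, 48.8 and 39.7 CPM in control hearts. Its Flna-labelled libraries lay between the control and the Asb2 fl/fl libraries. Yars2 fell in the Asb2 cKO (log2FC -0.72, SE 0.16, adjusted p = 0.0103) and likewise in the double mutant (log2FC -0.70, SE 0.13, adjusted p = 0.00348), and it did not pass in the Flna-labelled group (log2FC -0.27, SE 0.12, adjusted p = 0.376).

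Cars2 (ENSMUSG00000056228, chromosome 8, 11513977 to 11550783, minus strand), for cysteine, had 14.2, 13.8 and 16.5 CPM in Asb2 cKO hearts, 10.8, 15.7 and 10.3 CPM in double mutant hearts, 22.2, 18.3 and 17.6 CPM in Flna-labelled hearts and 28.9, 22.8 and 21.1 CPM in control hearts. Mars2 (ENSMUSG00000046994, chromosome 1, 55237177 to 55248470, plus strand), for methionine, had 7.70, 7.37 and 10.9 CPM in Asb2 cKO hearts, 6.42, 8.20 and 6.39 CPM in double mutant hearts, 12.1, 13.0 and 17.4 CPM in Flna-labelled hearts and 17.1, 13.6 and 14.9 CPM in control hearts. In both genes the Asb2 fl/fl libraries lay below the Asb2 fl/+ ones. Cars2 fell in the Asb2 cKO (log2FC -0.68, SE 0.18, adjusted p = 0.0207), except with a replicate block or without control library 1 or 2, and in the double mutant (log2FC -0.97, SE 0.19, adjusted p = 0.005). Mars2 fell in the Asb2 cKO (log2FC -0.79, SE 0.21, adjusted p = 0.0226), except with a replicate block, without control library 1 or 3 and without Asb2 cKO library 1 or 2. Its fall in the double mutant (log2FC -1.07, SE 0.18, adjusted p = 0.00198) held under each alternative and was the largest fall among the 36 genes. Reads shared with a neighbour could touch Cars2, whose exons overlap those of Naxd on the other strand by 422 bases, since the sources used here do not state whether strand was counted.

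Aars2 (ENSMUSG00000023938, chromosome 17, 45506841 to 45520843, plus strand), the mitochondrial alanine enzyme, known for fatal infantile cardiomyopathy in people with its variants, had 30.0, 30.8 and 28.9 CPM in Asb2 cKO hearts, 24.8, 25.5 and 25.4 CPM in double mutant hearts, 39.2, 45.5 and 39.1 CPM in Flna-labelled hearts and 44.6, 39.2 and 34.3 CPM in control hearts. The Asb2 fl/fl libraries lay below all others, and those of the double mutant were the lowest. Aars2 did not pass in the Asb2 cKO (log2FC -0.38, SE 0.15, adjusted p = 0.0816) and fell in the double mutant (log2FC -0.62, SE 0.13, adjusted p = 0.00588). Ears2 (ENSMUSG00000030871, chromosome 7, 122037213 to 122067263, minus strand), for glutamate, had 25.6, 21.5 and 25.0 CPM in Asb2 cKO hearts, 30.6, 32.0 and 23.5 CPM in double mutant hearts, 28.9, 27.9 and 31.4 CPM in Flna-labelled hearts and 31.5, 34.2 and 32.2 CPM in control hearts. Its double mutant libraries overlapped those of the other groups. It passed in neither comparison with the control (log2FC -0.44, SE 0.14, adjusted p = 0.0529 in the Asb2 cKO), and its call in the fit over all 12 libraries (log2FC -0.24, SE 0.094, adjusted p = 0.049) was lost under 16 of 23 alternatives. Among these were leaving out Asb2 cKO library 2 or 3, double mutant library 3, any Flna-labelled library or any control library. In that fit Fars2, Tars2 and Hars2, for phenylalanine, threonine and histidine, fell as well, with log2 fold changes of -0.45, -0.37 and -0.21. The call of Hars2 was lost without Asb2 cKO library 1, Flna-labelled library 2, double mutant library 1 or 3, or control library 1 or 2.

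Nars2, the mitochondrial asparagine enzyme, rose where the other called mitochondrial genes fell. It had 15.7, 22.0 and 21.8 CPM in Asb2 cKO hearts, 23.5, 23.2 and 19.98 CPM in double mutant hearts, 17.3, 17.0 and 17.96 CPM in Flna-labelled hearts and 14.1, 19.3 and 14.1 CPM in control hearts. Double mutant libraries were above all control libraries, and those of the Asb2 cKO overlapped them. Nars2 rose in the double mutant (log2FC 0.49, SE 0.16, adjusted p = 0.0436), a call lost without control library 1 or 3 and without double mutant library 1 or 2. In the fit over all 12 libraries it rose too (log2FC 0.33, SE 0.12, adjusted p = 0.0327), a call lost without Asb2 cKO library 2 or 3, double mutant library 1 or 2, Flna-labelled library 1 or 2, or control library 1 or 3. The cytosolic Nars rose beside it. Iars2, Pars2, Rars2, Vars2 and Wars2, for isoleucine, proline, arginine, valine and tryptophan, were called in no comparison. Wars2 was the lowest gene of the list per kilobase in the control and varied in the Asb2 cKO, at 9.52, 18.2 and 10.8 CPM.

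Lars2, for leucine, stood apart in level and in spread. It ran from 903.6 to 4861.5 CPM over the 12 libraries, a 5.38-fold range, and at 549 CPM per kb it lay far above the 2.23 to 11.27 CPM per kb of the other 15 mitochondrial genes. It had 3389, 1982 and 1348 CPM in Asb2 cKO hearts, 1075, 1199 and 4862 CPM in double mutant hearts, 1049, 904 and 2249.7 CPM in Flna-labelled hearts and 2458, 1322 and 3593 CPM in control hearts. Every group overlapped every other, and no comparison called it. Its transcript of 3894 bases shares 97 bases at 94.8% identity and 50 bases at 96.0% with AA474408, which has no values here. It also shares 72 bases at 98.6% identity with Gm15564, an antisense gene, between positions 3278 and 3349. Gm15564 had 12.9, 14.97 and 8.36 CPM in Asb2 cKO hearts, 6.37, 5.61 and 34.3 CPM in double mutant hearts, 6.02, 4.71 and 10.4 CPM in Flna-labelled hearts and 17.0, 7.79 and 14.3 CPM in control hearts. Both genes were highest in library 3 of the double mutant and of the Flna-labelled group. In the Asb2 cKO and the control their highest libraries differed. Reads of such shared sequence could be assigned to either gene, and their part in the Lars2 level was not tested. Without Lars2 the mitochondrial median log2 fold change was -0.27 in the Asb2 cKO and -0.27 in the double mutant against the control.

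Relative to the control mean, the median cytosolic gene lay above the median mitochondrial gene in each Asb2 fl/fl library. The cytosolic median minus the mitochondrial median, as log2 differences from the control mean, was 0.34, 0.36 and 0.39 in the Asb2 cKO, 0.66, 0.50 and 0.46 in the double mutant, 0.01, 0.08 and 0.03 in the Flna-labelled group and -0.04, 0.06 and -0.03 in the control. No Asb2 fl/fl library overlapped the others. Double mutant library 3 reached its gap mostly from the mitochondrial side, with a cytosolic median of 0.03 and a mitochondrial median of -0.43. The median of all 13981 genes stayed between -0.020 and 0.015 in every library.

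**Figure D3:**
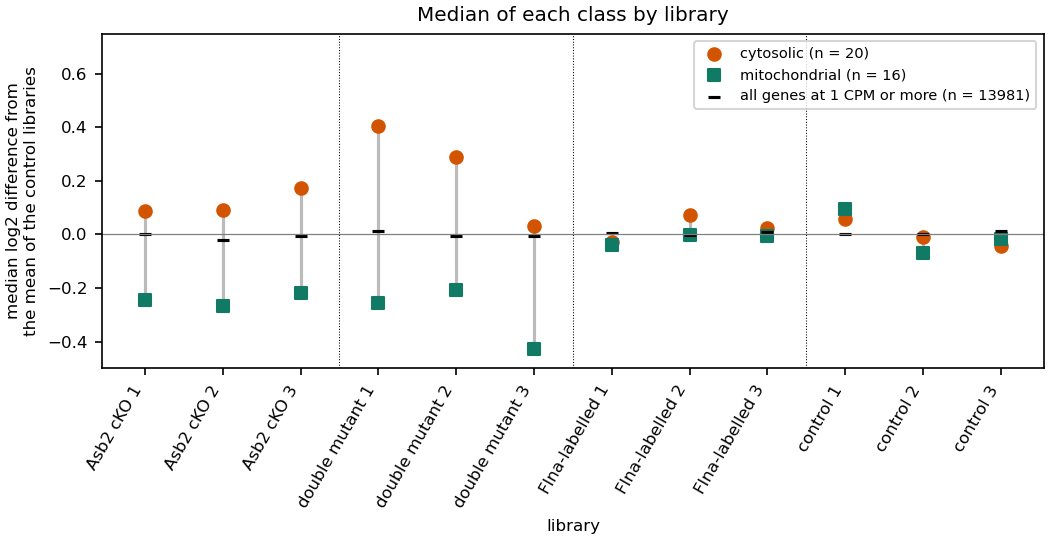
Median log2 difference from the control mean in each library (horizontal axis) for the 20 cytosolic genes (circles), the 16 mitochondrial genes (squares) and all 13981 genes at 1 CPM or more (dashes), with a grey line joining the compartments. The gap is 0.34 to 0.66 in the Asb2 cKO and double mutant libraries and at most 0.08 in the others.

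Setting the enzymes of the same amino acid side by side gave 17 pairs. The count of pairs in which the cytosolic gene had the higher log2 fold change did not set the Asb2 fl/fl groups apart. Against the control it was 12 of 17 in the Asb2 cKO, 13 of 17 in the double mutant and also 12 of 17 in the Flna-labelled group, where no synthetase was called. It was 11 of 17 in the double mutant against the Asb2 cKO and likewise 11 of 17 against the Flna-labelled group. The ratio of Sars to Sars2, each per kilobase, was 6.82, 12.2 and 8.37 in Asb2 cKO hearts, 15.5, 14.4 and 10.2 in double mutant hearts, 3.02, 3.25 and 3.27 in Flna-labelled hearts and 2.83, 3.12 and 3.06 in control hearts. It was higher in every Asb2 fl/fl library than in any other. The ratio of Cars to Cars2 was 1.95, 2.5 and 1.93 in Asb2 cKO hearts, 4.47, 2.51 and 3.29 in double mutant hearts, 1.00, 1.24 and 1.07 in Flna-labelled hearts and 0.660, 0.880 and 0.870 in control hearts. Per kilobase, the mitochondrial transcript was thus the more abundant in the control and the cytosolic one in the Asb2 fl/fl libraries. This change of order depends on the deposited lengths, 4913 bases for Cars and 1831 bases for Cars2. Without division by length Cars stood above Cars2 in the control too, at means of 51.4 and 24.3 CPM. The ratio of Mars to Mars2 was 15.3, 17.3 and 11.4 in Asb2 cKO hearts, 24.5, 17.3 and 18.1 in double mutant hearts, 9.07, 9.45 and 6.54 in Flna-labelled hearts and 7.30, 7.89 and 7.03 in control hearts. Here the cytosolic gene was not called and the ratio followed the mitochondrial one.

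The groups were separated in the same direction for alanine, isoleucine, tyrosine and glutamate (Eprs to Ears2). For histidine and arginine the separation was the reverse, with the cytosolic gene relatively lower. The ratio of Hars to Hars2 was 9.35, 5.88 and 8.44 in Asb2 cKO hearts, 7.96, 7.86 and 7.69 in double mutant hearts, 10.6, 10.2 and 10.8 in Flna-labelled hearts and 12.1, 10.5 and 10.3 in control hearts. Hars and Hars2 lie head to head and share 195 exon bases on opposite strands, so reads there could be counted for either. For phenylalanine, valine, asparagine, proline, threonine, leucine and tryptophan the ratios of the groups overlapped.

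**Figure D4:**
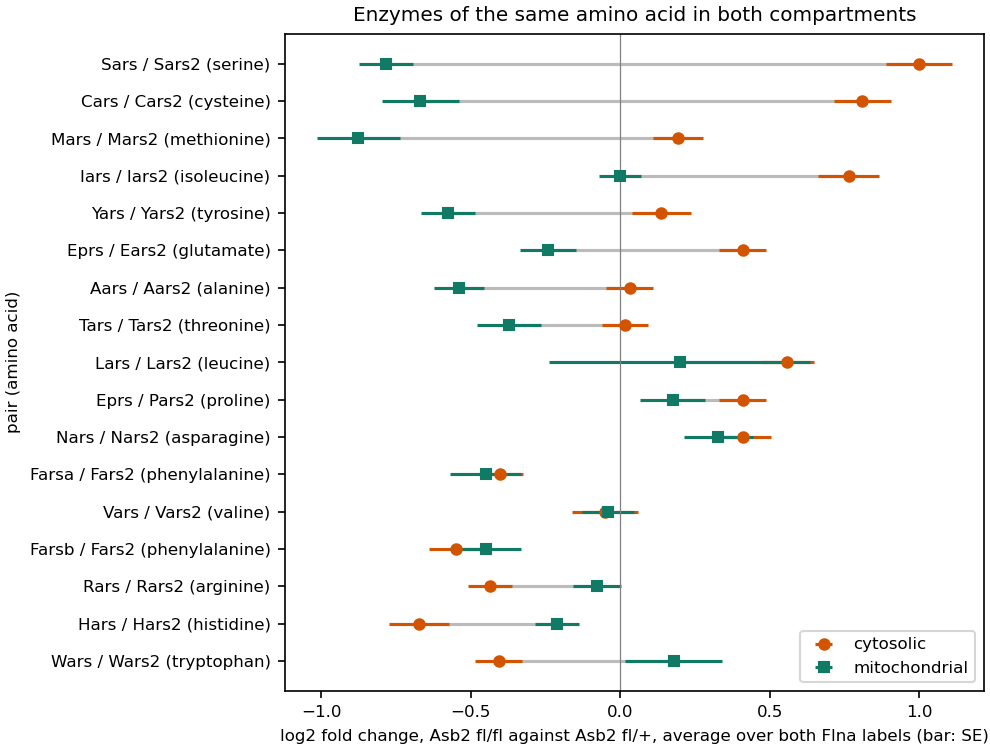
Log2 fold change of Asb2 fl/fl against Asb2 fl/+ hearts, averaged over both Flna labels in a fit of 12 libraries (horizontal axis), for the cytosolic (circles) and mitochondrial (squares) enzyme of each amino acid (rows), with SE as bars. Serine shows the widest gap, with Sars at 1.00 and Sars2 at -0.78. Histidine, arginine and tryptophan show the cytosolic gene lower, as do, by less, valine and Farsb beside Fars2.

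The Asb2 labels were compared a further time in the background labelled as floxed Flna, in the double mutant against the Flna-labelled group, which share no library with the Asb2 cKO and the control. Asb2 RNA itself, given above, overlapped between these groups and did not pass (log2FC -0.10, SE 0.21, adjusted p = 0.737), so this contrast rests on the Asb2 labels. Of the cell type markers, 9 of 10 for red blood cells, 5 of 5 for liver and 2 of 4 for epicardium fell. Those that rose were 4 of 7 for endothelium, 2 of 11 for cardiomyocytes and 1 of 7 for pharyngeal epithelium. In that comparison 9 cytosolic genes rose and 5 fell, and 0 mitochondrial genes rose and 7 fell, while 15.1% of 13954 genes rose and 16.3% fell, 31.5% together. Left-out libraries moved these counts. Over all genes 4394 were called, and 2805 without Flna-labelled library 1, 2776 without Flna-labelled library 2 and 2712 without double mutant library 2. The cytosolic genes that rose numbered 5 without Flna-labelled library 1 or without double mutant library 2. The mitochondrial genes that fell numbered 4 without Flna-labelled library 1 and 3 without Flna-labelled library 2. Sars (log2FC 1.22, SE 0.14, adjusted p = 0.000655), Cars (log2FC 0.92, SE 0.14, adjusted p = 0.00215) and Iars (log2FC 0.82, SE 0.11, adjusted p = 0.00117) led the increases again. Mars2 (log2FC -0.96, SE 0.19, adjusted p = 0.00643), Sars2 (log2FC -0.81, SE 0.12, adjusted p = 0.00166) and Aars2 (log2FC -0.69, SE 0.11, adjusted p = 0.00215) led the decreases.

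All 4 genes that rose in the Asb2 cKO against the control also rose in the double mutant against the Flna-labelled group, and all 8 that fell in the Asb2 cKO also fell there. These are the whole of either list of the Asb2 cKO, and 44.4% of the 9 that rose and 66.7% of the 12 that fell in the double mutant. Over all genes tested in both comparisons, 66.3% of those that rose and 62.9% of those that fell in the Asb2 cKO were called in the same direction in the double mutant, and these were 46.2% and 41.9% of its own lists. The log2 fold changes of the 36 genes had Pearson's r of 0.923 and Spearman's rho of 0.904 between the comparisons, and 30 of 36 had the same sign. Over all 13786 genes tested in both, r was 0.691, rho was 0.689 and 76.5% had the same sign. These correlations are across genes, which are not independent replicates, and whether the synthetases differ from other genes in this was not tested.

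**Figure D5:**
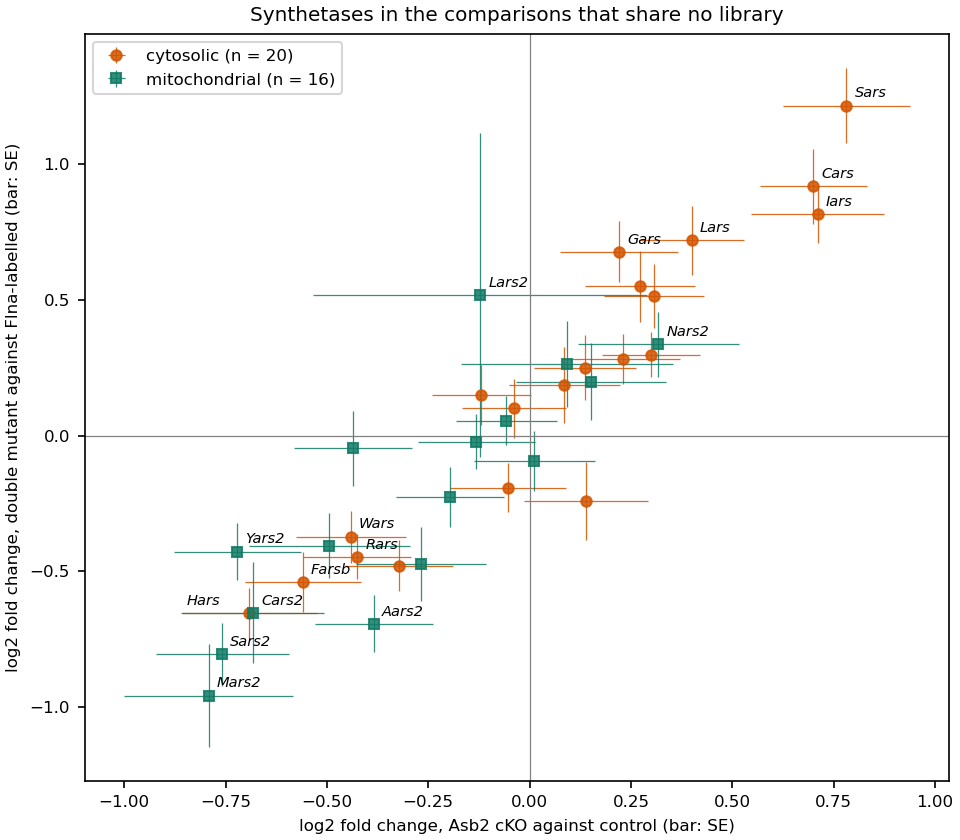
Log2 fold change of each synthetase gene in the Asb2 cKO against the control (horizontal axis) and in the double mutant against the Flna-labelled group (vertical axis), with SE as bars, for 20 cytosolic (circles) and 16 mitochondrial (squares) genes. Sars, Cars and Iars lie at the upper right and Mars2, Sars2 and Cars2 at the lower left, and Lars2 has the widest error bars. The cytosolic Hars, Farsb, Rars and Wars also lie at the lower left.

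The Flna label, on 1 floxed Asb2 allele, came with no call among the synthetases. In the Flna-labelled group against the control 0 of 36 genes passed with limma, edgeR or DESeq2, and 2 (Vars and Yars2) had an unadjusted p under 0.05. Of all 13891 genes 0.0288% rose and 0.0432% fell, 0.072% together. These are 10 calls with limma, beside 2 with edgeR and 244 with DESeq2. Without Flna-labelled library 3 they numbered 98, without Flna-labelled library 1 they numbered 3, without control library 1 or 2 there was 1, and without control library 3 there were 0. The median log2 fold change was 0.02 over the cytosolic genes and -0.04 over the mitochondrial genes, with signs that turned when a library was left out (-0.025 for the cytosolic genes without control library 3, 0.024 for the mitochondrial genes without control library 1). In the double mutant against the Asb2 cKO, 0 of 36 passed with any of the 3 tools, and 3 (Gars, Sars and Cars) had an unadjusted p under 0.05, while 0.0142% of 14037 genes rose and 0.00712% fell, 0.0214% together. These are 3 calls, beside 26 without Asb2 cKO library 2 and 14 with DESeq2. Gars was higher in the double mutant by 0.41 there, Sars by 0.46 and Cars by 0.36 on the log2 scale, each with an adjusted p of 0.999. Whether the Asb2 difference itself changed with the Flna label was tested as an interaction over the 12 libraries. It passed for 0 of 36 genes with each tool, and for 0 of all 13981 genes with limma and with edgeR, beside 71 with DESeq2, 18 with limma without Asb2 cKO library 2, and 1372 with limma at an unadjusted p under 0.05. Of the 36, 1, Gars, had an unadjusted p under 0.05 (log2FC 0.46, SE 0.18, adjusted p = 0.476). For Sars the interaction was 0.44 on the log2 scale, with a 95% interval from -0.04 to 0.91, so its size is not settled by these libraries.

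Genes of the ATF4 response and of mitochondrial translation were followed in the same hearts. Atf4 itself had 245, 358 and 295 CPM in Asb2 cKO hearts, 390.0, 345 and 309.6 CPM in double mutant hearts, 154, 175 and 189 CPM in Flna-labelled hearts and 188, 170.0 and 138 CPM in control hearts. Its Asb2 fl/fl libraries lay above all others, and it rose in the Asb2 cKO (log2FC 0.85, SE 0.17, adjusted p = 0.00761). Of 26 tested genes of the ATF4 response, 21 rose and 0 fell in the Asb2 cKO, 80.8% higher beside 10.7% of all genes, with a median log2 fold change of 1.30. They include Ddit4, an inhibitor of mTORC1 (log2FC 3.59, SE 0.17, adjusted p = 2.42e-06), and Slc7a3, a transporter of cationic amino acids (log2FC 3.68, SE 0.32, adjusted p = 0.000103). All 4 synthetases that rose changed by less than this median. Of 22 tested factors of mitochondrial tRNA modification and translation, 0 rose, 7 fell and 15 were not called in the Asb2 cKO, 31.8% lower beside 10.9% of all genes, with a median of -0.38. Trit1, which modifies tRNA, had the highest value and was not called (log2FC 0.42, SE 0.18, adjusted p = 0.11). Among those that fell were the elongation factors Gfm1 (log2FC -0.92, SE 0.13, adjusted p = 0.00126), Tsfm (log2FC -0.95, SE 0.20, adjusted p = 0.00902) and Tufm (log2FC -0.64, SE 0.14, adjusted p = 0.0115), and Qrsl1, a subunit of the enzyme that completes mitochondrial glutaminyl-tRNA (log2FC -0.85, SE 0.16, adjusted p = 0.00598). Of the 22, 0 rose and 10 fell in the double mutant against the control, 45.5% lower beside 16.7% of all genes. No test compared either list with other genes.

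Xist, which marks female samples, varied between libraries, at 571, 0.380 and 377 CPM in Asb2 cKO hearts, 0.0477, 0.546 and 9.34 CPM in double mutant hearts, 0.0506, 0.123 and 0.367 CPM in Flna-labelled hearts and 0.823, 302 and 106 CPM in control hearts. Flna lies on the X chromosome, so a label of Flnafl/fl names a female, yet all libraries so labelled had Xist at 9.34 CPM or less. The labels were kept as given. Among libraries without that label, Asb2 cKO library 2 and control library 1 were also low, and the others stood at 106 to 571 CPM. Sex and the Flna label therefore cannot be fully told apart. With Xist as a covariate in the fit over all 12 libraries, Ears2 was the only synthetase whose call was lost. Some counts could hold reads of overlapping genes. Aars shares 1326 exon bases with Exosc6 on the same strand, and Iars2 shares 2034 with Rab3gap2, Farsb 248 with Sgpp2 and Mars 68 with the stress gene Ddit3 on the opposite strand.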

How the data were processed

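Total RNA of 12 heart libraries was extracted with a Qiagen micro column kit, per the labels' protocols. The submitters' processing notes name STAR, HTSeq, edgeR and the mm10 genome, while versions, annotation and strand are not given in the sources used here. The authors deposited 4 tables of pairs of groups with expression values of unit signal, named CPM in the file headers. These columns sum to 942334 to 1051801, and all values (100%) are whole multiples of 1 read within 0.01 read, so they are CPM on scaled library sizes and the reads could be recovered. The authors' own log2 fold changes, log2 mean levels, p-values and false discovery rates, deposited beside these, were not used. Values of libraries in several tables agree to within 4.4e-06 CPM, which allowed joining the tables, and 13 columns without headers were left out. A plain CPM unit had been assumed when the tests were planned. Gene positions are from GENCODE M21 (GRCm38), promoters from RefSeq (GRCm38.p6).

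Groups were compared with limma 3.58.1 (trend, robust) in R 4.3.3 on log2(CPM + 0.5), keeping genes whose mean over the libraries of the fit reached 1 CPM, with Benjamini-Hochberg adjustment over all genes and a threshold of 0.05. All 36 members passed that filter. The members and gene lists were chosen with earlier results of these data known, and the tests and alternatives were set down with them. All members could be named, with values by library for the 8 cytosolic and 6 mitochondrial genes of smallest p in the Asb2 cKO and the genes set beside them, and for members against the direction of their class. Gars, Lars2 and Gm15564 were added to these after their values were seen. Values of Wars2 in the Asb2 cKO were also given outside this rule. Other genes named were the 4 of smallest p per list, or were fixed by name. Exceptions were Trit1, named for the highest value in its list, and genes that share sequence or exon bases with a member. Alternatives were a pseudocount of 0.1 or 2, a filter at 5 CPM or none, median-of-ratios scaling, removal of a trend over gene length (lowess span 0.3), limma without trend and robust, a replicate block, DESeq2 1.42.0 or the quasi-likelihood test of edgeR 4.0.16 on recovered reads, all 4 groups in a single fit (or Xist as a covariate where they already were), and leaving out each library. Replicates differed by more than sampling noise (lowest mean chi-square per gene 20.3). Tested on simulated data, the fit of the Asb2 cKO against the control recovered 99 of 100 genes changed 2-fold among 14003, with 13 false calls. The interaction recovered 76 of 100 among 13972, with 11 false calls. The simulation gave every gene the same dispersion and changed only genes at 5 CPM or more. Synthetase calls in the Asb2 cKO against the control were all below 2-fold, and recovery of changes of that size was not tested.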

Additional observations from a re-analysis of the deposited data

How the results depend on the processing

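Over 252 values, each a log2 fold change of a gene in a comparison, 4716 were recomputed under alternatives. Of these, 4558 kept their side of the threshold, 133 lost a call and 25 gained one. A sign changed in 167, and in 0 of these was the gene called in the fit reported. Only called genes could lose a call, so the comparisons without a synthetase call had none to lose. Under every alternative, 4 of 12 calls held in the Asb2 cKO and 14 of 20 in the double mutant, both against the control. Against the Flna-labelled group 12 of 21 calls of the double mutant held, and in the fit over all 12 libraries 20 of 24. In the Asb2 cKO against the control, the mitochondrial genes that fell numbered 7 in a joint fit of the 4 groups, beside 4 in the fit of 6 libraries, and 2 to 4 when a library was left out. The cytosolic genes that rose numbered 2 to 4 when a library was left out. In the double mutant against the Flna-labelled group, left-out libraries gave 5 to 10 cytosolic genes that rose and 3 to 6 mitochondrial genes that fell. The cytosolic genes that fell in the Asb2 cKO numbered 0 in limma without trend and robust. The cause was not tested, though a left-out library also leaves fewer libraries. For the Asb2 cKO against the control the calls over all genes ran from 1557 with a replicate block to 4211 in the joint fit, beside 3033 in the fit reported.

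By the rule used here, a correlation above 0.1 for all 3 numbers, replicate numbers did not pair the libraries. With group means taken out, same-numbered libraries had correlations of -0.46 to 0.43, and all 3 exceeded 0.1 in 0 of 6 pairs of groups. The double mutant and Flna-labelled groups had 0.275, 0.032 and 0.426, so a pairing in part of these libraries is not excluded. With a replicate block the mitochondrial genes that fell in the Asb2 cKO against the control numbered 2 and the cytosolic genes that fell numbered 1, in place of 4 each. In the double mutant against the Flna-labelled group the block raised the calls over all genes from 4394 to 5474. Each group holds 3 libraries, which limits how small a difference can pass, and an adjusted p above the threshold does not show that a gene was unchanged.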

Other observations

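Counts were also taken by structural class of the synthetases, which differ in the fold of the catalytic domain. Of 10 cytosolic genes of class I, 3 rose and 2 fell in the Asb2 cKO against the control, and of 10 of class II, 1 rose and 2 fell. In the double mutant against the control 5 rose and 2 fell in class I, and 4 rose and 3 fell in class II. Over all genes tested, 10.7% rose and 10.9% fell in the Asb2 cKO, and 15.6% rose and 16.7% fell in the double mutant. The counts of the classes lay within a few genes of each other, and their difference was not tested.

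Of 7 genes for cytosolic elongation factors and tRNA export, Eef2, which moves the ribosome along the mRNA, rose in the Asb2 cKO (log2FC 0.88, SE 0.16, adjusted p = 0.00506), and Eef1d, part of the exchange factor that reloads eEF1A, fell (log2FC -0.60, SE 0.16, adjusted p = 0.0238). Eef2 had 3666, 4428 and 3535 CPM in Asb2 cKO hearts, 4304, 4365 and 4285 CPM in double mutant hearts, 2251, 2185 and 2143 CPM in Flna-labelled hearts and 2091, 1951 and 2263 CPM in control hearts, with no overlap between the Asb2 fl/fl libraries and the others. Xpot, which exports tRNA from the nucleus, did not pass in the Asb2 cKO (log2FC 0.22, SE 0.14, adjusted p = 0.261) and rose in the double mutant against the control (log2FC 0.43, SE 0.12, adjusted p = 0.023). Of the 4 kinases that phosphorylate eIF2alpha, Eif2ak4, which responds to uncharged tRNA, rose in the Asb2 cKO (log2FC 0.53, SE 0.17, adjusted p = 0.0483) and did not pass in the double mutant (log2FC 0.33, SE 0.13, adjusted p = 0.0832). The other 3 were not called in the Asb2 cKO, where Eif2ak1 was lower, at a mean of 42.2 CPM beside 57.3 CPM in the control. Against the Flna-labelled group, 0 of the 4 rose and 1 fell in the double mutant. The fit over all 12 libraries called 1 higher and 1 lower. Over all genes tested, 10.7% rose and 10.9% fell in the Asb2 cKO.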
